A study of Mus musculus with 69 samples.

Results

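Axon guidance ligands and their receptors were read in single cells of the mouse cerebral wall at embryonic day 14. The set was chosen by gene symbol alone and holds the semaphorins of classes 3 to 7, the plexins and neuropilins, the Slits and Robos, the netrins with Dcc and the Unc5 receptors, and the ephrins with the Eph receptors. It has 68 members among the 18194 genes measured, 35 of them ligands and 33 receptors. Each gene was read from 1 probe set, the brightest of its single-gene probe sets by mean log2 signal over the 69 cells. Ephb2 is not analysed here.

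Each sample was 1 cell, picked by hand after trypsin treatment of tissue from the dorso-lateral wall, amplified and hybridised to an Affymetrix array. The embryos were of the outbred CD1 strain, with no genetic change or treatment named. By the source label 66 of the 69 cells came from the ventricular or subventricular zone (VZ/SVZ), the site of progenitor division, and 3 from the cortical plate (CP), where neurons settle, although the description label of those 3 cells names the VZ/SVZ. No label names an animal or litter, so each group is a single sample without replicates, and the differences given are descriptions of these cells with no p-value.

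Guidance ligands are secreted or membrane-bound cues that attract or repel growing processes and migrating cells through receptors on their surface. Semaphorins signal through plexins, those of class 3 mostly with a neuropilin as co-receptor, Slits through Robos, netrins through Dcc and Unc5 receptors, and ephrins through Eph receptor tyrosine kinases. In the developing cortex the same families are known to take part in progenitor adhesion, in the radial migration of newborn neurons and in the growth of their axons.

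The deposited values are MAS5 signals on a linear scale. A member was counted as detected in a cell when its signal was above 50 (5.64 on the log2 scale), which none of the 207 values of a control RNA not listed as added passed. For means, signals under 6.26 (2.65 on the log2 scale), the 95th percentile of that control, were set to it. A difference was counted when mean log2 signals differed by at least 1 unit, which is a limit on size with no test behind it. Cells were also split by whether Sox2, a transcription factor of apical progenitors, Eomes, a transcription factor of intermediate progenitors, or Tubb3, a tubulin of neurons, was above 50. Of the VZ/SVZ cells, 30 had Sox2 without Tubb3, 19 had both, 16 had Tubb3 without Sox2 and 1 had neither. Eomes was above 50 in 28. Sox2 lay within 25 to 100 in 3 cells, Eomes in 2 and Tubb3 in 1.

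The labelled tissue was checked against marker lists. All 9 apical progenitor markers measured and all 11 neuron markers were above 50 in some VZ/SVZ cell. In the CP cells 10 of 11 neuron markers were above 50, Nefl being the exception, 3 of 9 apical progenitor markers were, and none of 5 markers of dividing cells was. Markers of endothelial cells, microglia and erythroid cells were above 50 in no cell. Of the pericyte and meninges list 3 of 6 were above 50 in at least 1 VZ/SVZ cell, of the interneuron lineage 4 of 7, of Cajal-Retzius cells 2 of 5 and of oligodendrocyte precursors 2 of 5, and in the CP cells none was. The number of genes above 50 per cell ran from 3726 to 5715 in the VZ/SVZ and from 3713 to 4719 in the CP. Bacterial RNA added at 5 copies per cell (thr) was above 50 in only 27 of 69 cells at its 3′ end and in none of the CP cells, so at this depth a member not above 50 cannot be called absent.

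The pair of class 5 semaphorins and a pair of receptors, Plxna2 and Epha3, lay on opposite sides of the split between Sox2 and Tubb3 cells. Their promoters are shown because the members of each pair differed in the same direction across that split. These 4 were chosen after their values were seen. Each is the 250 bases before the RefSeq transcription start, 5′ to 3′ on the strand of the gene (build GRCm38.p6), with CG dinucleotides in capitals. Sema5a lies at chr15:32244563-32244812 on the plus strand with 17 CG, Sema5b at chr16:35541112-35541361 on the plus strand with 19, Plxna2 at chr1:194619579-194619828 on the plus strand with 18, and Epha3 at chr16:63864176-63864425 on the minus strand with 16.
Sema5a: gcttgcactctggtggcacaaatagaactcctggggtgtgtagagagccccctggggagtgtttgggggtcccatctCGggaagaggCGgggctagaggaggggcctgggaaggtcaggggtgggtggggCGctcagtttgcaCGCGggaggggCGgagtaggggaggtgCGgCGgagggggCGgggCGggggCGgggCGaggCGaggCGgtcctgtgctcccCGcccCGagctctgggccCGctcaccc
Sema5b: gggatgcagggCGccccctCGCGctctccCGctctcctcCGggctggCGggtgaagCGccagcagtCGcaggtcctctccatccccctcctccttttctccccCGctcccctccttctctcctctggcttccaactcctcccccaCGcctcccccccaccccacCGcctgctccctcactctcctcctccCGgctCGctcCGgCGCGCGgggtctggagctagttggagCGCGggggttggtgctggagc
Plxna2: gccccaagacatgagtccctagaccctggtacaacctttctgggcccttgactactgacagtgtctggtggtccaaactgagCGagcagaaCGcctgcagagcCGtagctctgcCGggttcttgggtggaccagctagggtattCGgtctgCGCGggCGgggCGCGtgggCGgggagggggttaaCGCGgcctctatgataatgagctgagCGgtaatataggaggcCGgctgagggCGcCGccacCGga
Epha3: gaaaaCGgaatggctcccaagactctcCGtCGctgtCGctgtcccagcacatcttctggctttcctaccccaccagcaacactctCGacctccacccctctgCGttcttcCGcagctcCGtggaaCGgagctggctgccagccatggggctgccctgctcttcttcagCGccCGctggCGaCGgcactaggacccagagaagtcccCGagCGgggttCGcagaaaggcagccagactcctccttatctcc

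All 4 windows are rich in CG, as were the members' windows in general: the median was 15 CG over the 74 windows of the 58 members matched by symbol, and 6 over all 32851 windows of the same length. Both strands were searched for the E-box CANNTG, the core bound by basic helix-loop-helix factors, which was in 66.2% of all windows, in 47.3% of the members' windows and in none of these 4. Its forms CAGCTG (4271 of all windows) and CATCTG or CAGATG (4745), which are contained in CANNTG, and the Sox-type core AACAAT or ATTGTT (3096) were in none of the 4 either. A match or its lack describes only the letters in these windows.

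Detection differed widely among members. Plxnb2, a receptor for class 4 semaphorins, and the transmembrane ephrins Efnb1 and Efnb2 were above 50 in all 66 VZ/SVZ cells (exact Clopper-Pearson 95% interval 94.6% to 100%, counting error only). Their signals ran from 70.8 to 3287 with a median of 1039.6 for Plxnb2, from 52.5 to 2266 with a median of 547 for Efnb1, and from 75.0 to 3172 with a median of 1077 for Efnb2. These members were found in every germinal-layer cell, and between cells with and without Sox2 their levels differed by 0.07 for Plxnb2 and 0.60 for Efnb1 on the log2 scale, less than the SD over cells of 1.07 and 1.12. The Eph receptors Epha4, which binds ephrins of both classes, and Epha5 followed with 64 and 59 cells, and Plxnb1, the receptor of Sema4d, with 56.

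Altogether 14 members (20.6%) were above 50 in at least 50% of VZ/SVZ cells, against 25.2% of all genes. The others in this group were Sema5b (52 cells), Plxna2 (51), Sema5a (41), Plxna1 (41), Plxna3 (40), Efna2 (38), Sema6d (36) and Epha3 (33). A further 17 members were above 50 in 11 to 32 cells: the ligands Sema3a, Sema3c, Sema3f, Sema4b, Sema4d, Sema4g, Sema6c, Sema7a, Efna4 and Efnb3 and the receptors Plxnc1, Nrp1, Robo2, Unc5d, Dcc, Epha7 and Ephb3. Another 22 were so in 1 to 10 cells, namely Sema3e, Sema4a, Sema4c, Sema4f, Sema6b, all 3 Slits, Ntn4, Efna3, Efna5, Plxna4, Plxnd1, Nrp2, Robo1, Unc5a, Unc5b, Unc5c, Epha8, Ephb1, Ephb4 and Ephb6. On the probe set used, no cell of the 69 passed 50 for 14 members (20.6%, against 38.4% of all genes): Sema3b, Sema3d, Sema3g, Sema6a, Plxnb3, Robo3, Robo4, Ntn1, Ntn3, Ntn5, Epha1, Epha2, Epha6 and Epha10. Other probe sets of 4 of these passed 50 in a few cells: of Sema6a, 1 did so in 4 VZ/SVZ cells and 1 CP cell and another in 2 VZ/SVZ cells, of Ntn1 in 2, and of Sema3d and Robo3 in 1 each. For the probe sets used, 0 of 66 VZ/SVZ cells allows a share of up to 5.44%. Efna1 passed 50 in a single CP cell and in no VZ/SVZ cell. Netrins passed 50 in few cells, while their receptor Dcc was above 50 in 28 VZ/SVZ cells and Unc5d in 18. Ntn4, a basement membrane netrin, passed 50 in 9 cells by the probe set used.

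More members were above 50 in Tubb3 cells than in Sox2 cells, with ranges that overlapped, and the receptors differed more than the ligands. Cells with Sox2 without Tubb3 had a median of 15.5 members above 50 (range 12 to 19), cells with both 18 (13 to 22) and cells with Tubb3 without Sox2 22 (15 to 28). Receptors went from a median of 8 to 10 to 12 in the same order, and ligands from 8 to 8 to 10. All genes above 50 went the other way, from a median of 4906.5 to 4861 to 4269.5. The 3 CP cells had 20, 21 and 26 members above 50 and a median of 12 receptors and 10 ligands. The counts are descriptions of cells chosen by Sox2 and Tubb3 signal, neither of which is a member.

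**Figure D1:**
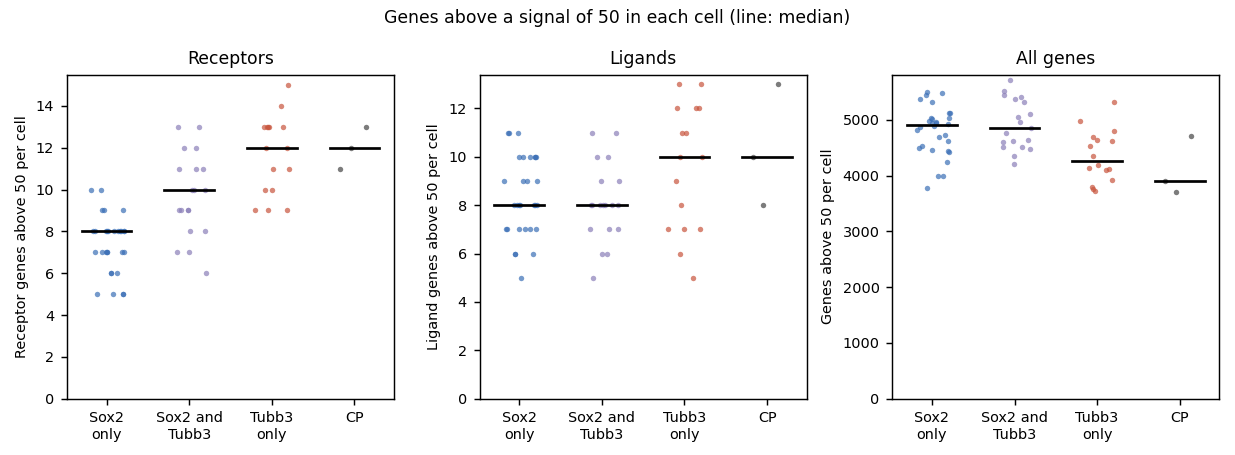
Number of receptor members (left), ligand members (middle) and all genes (right) with a signal above 50 in each cell, for VZ/SVZ cells with Sox2 only (n = 30), Sox2 and Tubb3 (n = 19) or Tubb3 only (n = 16) and for CP cells (n = 3). Points are cells and lines are medians; the receptor medians go from 8 to 10 to 12 while the medians of all genes go from 4906.5 to 4269.5.

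Among the ligands, the class 5 semaphorins, transmembrane proteins with thrombospondin repeats, went with Sox2. Sema5a was above 50 in 26 of 30 cells with Sox2 without Tubb3, with a lowest signal of 0.85, a median of 306 and a highest of 1941, and in 1 of 16 cells with Tubb3 without Sox2, where the median was 0.80 and the highest 569.7. On the log2 scale the levels were 7.92 ± 2.43 and 3.19 ± 1.62 (SD over cells), a difference of −4.72. Sema5b was above 50 in 29 of 30 and 4 of 16 of the same cells, with medians of 593 and 3.25 and levels of 9.04 ± 1.26 and 4.21 ± 2.54, a difference of −4.84. Both passed 50 in most Sox2 cells and were under it in most cells with Tubb3 alone, with some cells of each kind overlapping. The share above 50, Tubb3 minus Sox2 cells, differed by −80.4 points for Sema5a (Newcombe 95% interval −89.9 to −52.9, counting error only) and by −71.7 for Sema5b (−86.7 to −43.8).

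Cells with both Sox2 and Tubb3 lay nearer to the Sox2 cells for this pair. Sema5a was above 50 in 13 of these 19 cells and Sema5b in 18. Between the 28 cells with Eomes and the 38 without, Sema5a differed by −0.08 and Sema5b by 0.14 on the log2 scale, far less than the SD over cells. The cells without Eomes are mixed: Sema5a was above 50 in 17 of 20 with Sox2 alone and in 0 of 10 with Tubb3 alone, and Sema5b in 19 and 1. Among cells with both Sox2 and Tubb3, Sema5a was above 50 in 7 of 8 without Eomes and 6 of 11 with it, and Sema5b in 8 and 10. Both ligands were above 50 together in 38 cells, out of 41 with Sema5a and 52 with Sema5b. Of the other probe sets, 1 of Sema5b and 2 of 3 of Sema5a gave the same sign between the Sox2 and Tubb3 cells, and the remaining Sema5a probe set was above 50 in no cell.

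Most other semaphorins that differed went the other way. Sema6d, a transmembrane ligand of class A plexins, was above 50 in 13 of 16 cells with Tubb3 without Sox2 (lowest 2.47, median 2310.5, highest 6891) and in 9 of 30 with Sox2 without Tubb3 (0.60, 10.03 and 2122). Its levels were 9.43 ± 3.54 and 4.78 ± 2.88, a difference of 4.65. Its other 3 probe sets were above 50 in no cell, so the value rests on 1 probe set. Sema7a, a glycosylphosphatidylinositol-anchored ligand, was above 50 in 12 of 16 and 7 of 30 (7.55 ± 2.64 against 4.32 ± 1.83). Sema4g was so in 11 and 7 (7.53 ± 2.82 against 4.66 ± 2.24), Sema6c in 10 and 3 (6.10 ± 2.47 against 3.89 ± 1.32) and Sema4d, the ligand of Plxnb1, in 10 and 11 (6.65 ± 2.77 against 5.06 ± 2.40). For Sema7a, Sema6c and Sema4d too, the other probe sets passed 50 in no cell.

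Every other ligand differed by less than Sema5a, Sema5b and Sema6d. Sema3a, a secreted semaphorin and repellent, was above 50 in 31 VZ/SVZ cells spread over all classes, with 16 of 30 Sox2 and 6 of 16 Tubb3 cells, a difference of −1.02 that turned to 0.43 within title letter X alone. Efna2, an ephrin anchored in the membrane, was above 50 in 17 of 30 and 13 of 16 (5.48 ± 2.02 and 6.65 ± 1.84). Efna3, of the same class, was above 50 in none of the 30 Sox2 cells and in 6 of 16 Tubb3 cells. Slit1 was above 50 in 4 VZ/SVZ cells and Slit2 in 10. Ntn4 was above 50 in 7 of 30 Sox2 cells and none of the Tubb3 cells, which allows a share of up to 20.6% there.

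Receptors held the clearest contrast. Plxna2, a plexin for class 3 and class 6 semaphorins, was above 50 in all 16 cells with Tubb3 without Sox2, with signals of 1725 at the lowest, 3238 at the median and 6225 at the highest, and in 19 of 30 with Sox2 without Tubb3, with 0.82, 319.8 and 1603. These classes did not overlap: the dimmest Tubb3 cell was above the brightest Sox2 cell, as for 0.0385% of all genes in either direction. The levels were 11.60 ± 0.49 and 6.80 ± 3.21, a difference of 4.80. Of its other 3 probe sets, those passing 50 in 43 and 28 VZ/SVZ cells differed by 4.07 and 4.28, and the last, which passed it in 4, by −0.31.

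Epha3, a receptor for membrane-anchored ephrins, was above 50 in all 16 Tubb3 cells (lowest 81.6, median 350.2, highest 1426) and in 5 of 30 Sox2 cells (0.29, 2.19 and 237). Its levels were 8.44 ± 1.14 and 3.60 ± 1.86, a difference of 4.84, and the share differed by 83.3 points (57.6 to 92.7). Another Epha3 probe set, above 50 in 17 VZ/SVZ cells, differed by 2.57, and those above it in 3 and 2 by 0.32 and −0.02. Cells with both Sox2 and Tubb3 were divided, with 11 of 19 above 50. The split in those 19 followed Eomes: Epha3 was above 50 in 9 of 11 with Eomes and in 2 of 8 without it. Plxna2 had the same arrangement, with 11 of 11 and 4 of 8.

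Unc5d and Nrp1 were narrower. Unc5d, of the netrin receptor family, which also binds FLRT proteins, was above 50 in 12 of 16 Tubb3 cells (lowest 2.38, median 418, highest 1889), 5 of 19 with both and 1 of 30 Sox2 cells (0.14, 2.19 and 149). Nrp1, the co-receptor for Sema3a, was so in 10 of 16 (1.12, 289 and 1552), 6 of 19 and 1 of 30 (0.42, 3.60 and 266). Each passed 50 in a single Sox2 cell. The differences in level were 4.35 and 3.92, and the other 3 probe sets of Nrp1 gave 4.70, 3.12 and 2.57. Every cell with Unc5d above 50, 18 in the VZ/SVZ, also had Epha3 and Plxna2 above 50, and all 17 with Nrp1 had Plxna2 and 15 had Epha3. Sema5a and Unc5d were both above 50 in 2 cells, out of 41 and 18.

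Further receptors followed with smaller differences. Dcc, the attractive netrin receptor, was above 50 in 10 of 16 Tubb3 cells and 7 of 30 Sox2 cells (6.76 ± 2.89 against 3.89 ± 2.33). Robo2, a Slit receptor, was so in 9 and 2 (5.71 ± 2.14 against 2.92 ± 0.84), and Epha7, another Eph receptor, in 9 and 4 (6.20 ± 2.72 against 3.80 ± 1.94). With values under 50 set to 50, the Robo2 difference of 2.79 became 0.88, under the limit of 1. Unc5a was above 50 in 7 of 16 Tubb3 cells and none of the Sox2 cells, which allows a share of up to 11.6% there. Ephb3 and Plxnc1, the receptor of Sema7a, went the other way. Ephb3 was above 50 in 19 of 30 Sox2 cells (median 103, highest 736) and in 1 of 16 Tubb3 cells (16.5 and 253), a difference of −2.31, and Plxnc1 in 10 and 1, a difference of −1.49. Sema7a and its receptor Plxnc1 thus had opposite differences between these classes. Epha4 and Epha5 differed by −0.97 and 0.50 on the probe sets used, under the limit of 1. Other Epha4 probe sets, above 50 in 45 and 43 VZ/SVZ cells, gave −1.96 and −2.06, and those above it in 7 and 2 gave −0.39 and −0.19. Other Epha5 probe sets, above it in 37, 27 and 14, gave 1.71, 2.11 and 0.29.

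**Figure D2:**
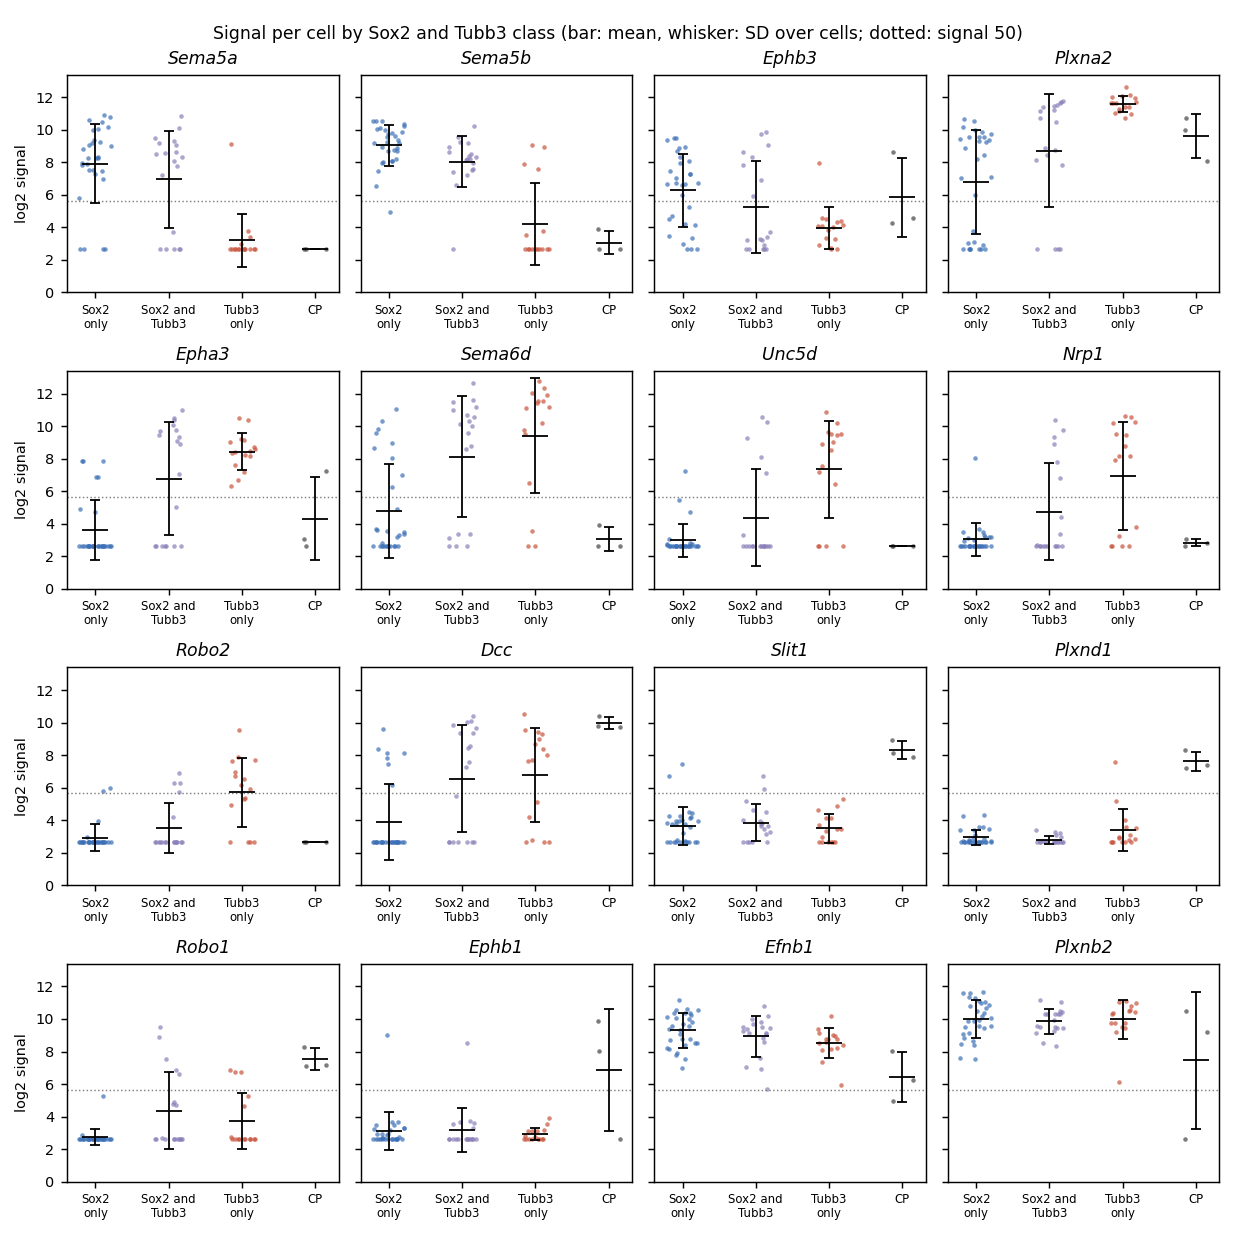
log2 signal of 16 members in each cell, for VZ/SVZ cells with Sox2 only (n = 30), Sox2 and Tubb3 (n = 19) or Tubb3 only (n = 16) and for CP cells (n = 3). Points are cells, bars means, whiskers the SD over cells and the dotted line a signal of 50; Sema5a and Sema5b fall to the floor in most Tubb3-only cells, where all 16 cells are above 50 for Plxna2 and Epha3, and Slit1 and Plxnd1 are above it in all 3 CP cells.

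Between cells with Tubb3 without Sox2 and those with Sox2 without Tubb3, 20 of the 68 members were higher by at least 1 log2 unit, against 8.08% of all genes, and 6 were lower, against 13.1%. By the probe sets used, the receptors counted 11 higher and 2 lower of 33, and the ligands 9 higher and 4 lower of 35. The median difference was 0.04 over members and −0.01 over all genes, so most members differed little. The members higher that are not described above were Ephb6, Sema4f, Plxna3, Sema3c and Plxna4, by 1.19 to 1.96. Split by Tubb3 alone, 14 members were higher with it (5.17% of all genes) and 4 lower (7.08%), 11 of the 14 being receptors. Split by Sox2 alone, 6 were higher with it (12.3%) and 19 lower (6.76%). The 3 splits share most of their cells.

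Markers of other states moved with this split. Cells with Sox2 without Tubb3 had a median of 8 of 9 apical progenitor markers, 2 of 11 neuron markers and 5 of 5 markers of dividing cells above 50, and cells with Tubb3 without Sox2 had 1.5, 7.5 and 1. Their part in the differences of the members was not tested. With values under 50 set to 50 the counts were 11 higher and 3 lower, against 4.04% and 6.12% of all genes. The classes were also uneven over the title letters, whose meaning the labels do not give: of the 16 cells with Tubb3 without Sox2, 7 were letter D, 5 letter X, 2 letter B and 2 letter C, and of the 30 with Sox2 without Tubb3, 20 were letter X. Within letter X alone, with 5 and 20 cells, Sema5a differed by −4.60, Sema5b by −4.02, Plxna2 by 5.61, Epha3 by 5.17, Sema6d by 6.57, Nrp1 by 4.34, Sema7a by 3.43 and Plxnc1 by −2.04.

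Few members differed by Eomes, in shares near those of all genes. With Eomes, 4 members were higher by at least 1 log2 unit, against 4.01% of all genes, and 4 were lower, against 5.04%; the mean of all probe sets left 2 and 1. All 8 intermediate progenitor markers, Eomes among them, were higher with Eomes (median 3.23), as were all 5 dividing-cell markers (median 1.43), 4 of 9 apical progenitor markers were lower and 1 higher, and of 11 neuron markers 4 were higher and 2 lower; their part in the differences of the members was not tested. The members higher were all receptors. Plxna2 was above 50 in 25 of 28 cells with Eomes and 26 of 38 without, a difference in level of 2.38. Dcc was so in 17 and 11 (2.22) and Epha3 in 18 and 15 (1.997). Robo1, a Slit receptor, was so in 6 and 2 (1.02, which turned to −0.32 within letter X).

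The members lower with Eomes were Sema4d, Ephb3, Plxnc1 and Plxna3. Sema4d was above 50 in 3 of 28 cells with Eomes and 20 of 38 without, a difference of −2.05, and in none of the 11 cells that had Sox2, Eomes and Tubb3 together. Ephb3 was so in 8 and 20 (−1.62) and Plxnc1 in 4 and 14 (−1.15). Plxna3 was so in 14 and 26 (−1.10, which turned to 0.033 within letter X). The cells without Eomes are mixed: 20 had Sox2 alone, 8 had Sox2 with Tubb3, and 10 had Tubb3 alone. Sema4d was above 50 in 9 of these 10 and in 9 of those 20. Ephb3 was above 50 in 13 of the 20 and in none of the 10.

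The members differed in which combinations of Sox2, Eomes and Tubb3 they were found with. Plxna2 was above 50 in 12 of 20 cells with Sox2 alone, 7 of 10 with Sox2 and Eomes, 11 of 11 with all 3, 6 of 6 with Eomes and Tubb3, and 10 of 10 with Tubb3 alone. Epha3 read 3, 2, 9, 6 and 10 of the same cells. Dcc read 4, 3, 9, 5 and 5. Nrp1 read 0, 1, 6, 2 and 8, and Unc5d 1, 0, 5, 3 and 9. Sema5a ran the other way with 17, 9, 6, 1 and 0. The order in which the classes are named is by marker and is not a measured time. Sema6d read 7, 2, 9, 4 and 9, and Robo2 1, 1, 3, 2 and 7. In the remaining 8 cells, with Sox2 and Tubb3 without Eomes, Sema5a was above 50 in 7, Plxna2 and Sema6d in 4, Epha3 and Dcc in 2, Robo2 in 1, and Unc5d and Nrp1 in none.

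Across the title letters the 7 cells of letter D stood apart in several members. All 7 had Tubb3 and none had Sox2, Eomes, Pax6 or Mki67 above 50. Sema5a and Sema5b were above 50 in none of them, which allows a share of up to 40.96%, whereas Plxna2, Epha3, Unc5d, Sema6c and Plxna3 were above 50 in all 7, and Nrp1, Sema4d, Sema4g, Sema6d, Sema7a and Efna2 in 6. Plxna3 and Efna2 did not set letter D apart. The median Plxna3 signal was 304 in letter A and 264 in letter D, and that of Efna2 was 161 in letter C and 147 in letter D. Unc5d in these 7 cells read 8.79 ± 1.24 against 3.74 ± 2.48 in the 31 cells of letter X. Its median signal was 472 in letter D and 137 in letter C. The median number of members above 50 was 23 in letter D, 19 in C, 17 in X, 16 in A and 15.5 in B. Letter C, 7 cells with Eomes in all, had Sema6d, Plxna2 and Epha3 above 50 in every cell and Dcc in 6. Detection of Sema6d, Plxna2 and Epha3 thus did not set letter D apart from letter C. The median Epha3 signal was 836 in letter C and 329 in letter D.

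Some members of low detection came from a single letter. All 9 VZ/SVZ cells with Ntn4 above 50 were letter X, and all 4 with Slit1 were letter B. Ephb3 was above 50 in 18 of 31 letter X cells and in 5 of 7 letter A cells, and in none of letter D. In letter A, 7 cells with Sox2 in all and Eomes in none, Sema5b was above 50 in all 7 and Sema5a in 6, while Nrp1, Robo1, Sema7a, Sema3c and Unc5a were above it in none.

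**Figure D3:**
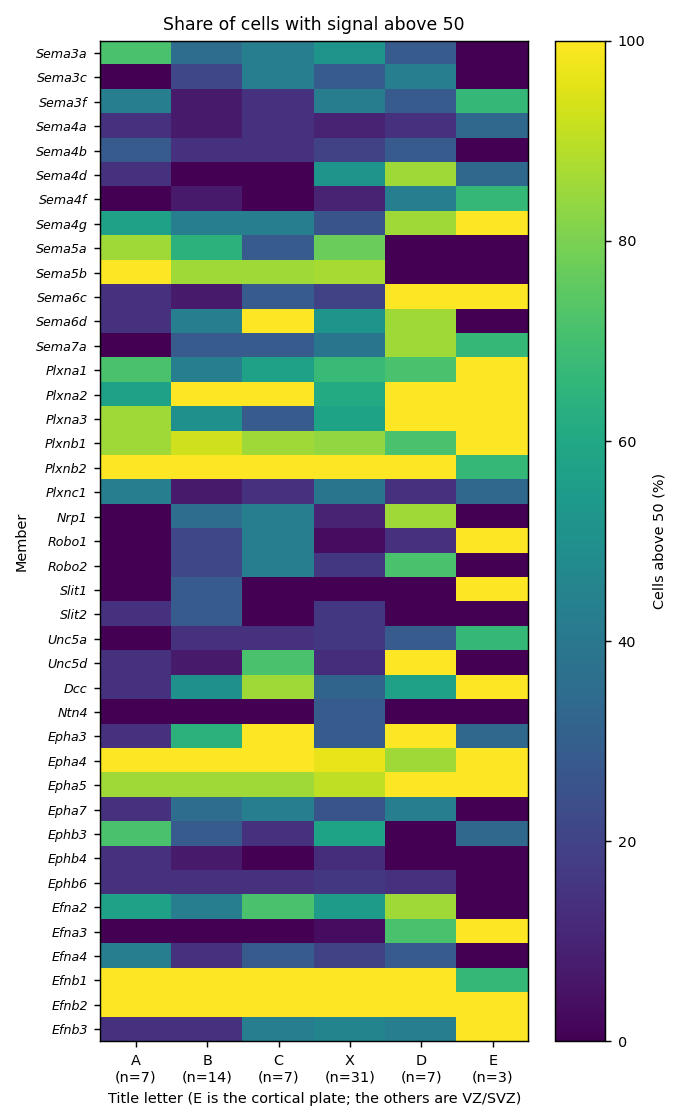
Share of cells with a signal above 50 (colour, in percent) for the 41 members above 50 in at least 5 of the 69 cells, by title letter, with the number of cells of each letter under it. Letter E is the CP and the others are VZ/SVZ; Plxnb2, Efnb1 and Efnb2 are at 100% in all 5 VZ/SVZ letters, and Sema5a and Sema5b are at 0 in letters D and E.

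The cortical plate cells shared many members with the VZ/SVZ and were higher for several: of the 15 members above 50 in all 3 CP cells, 7 were also above it in at least 50% of VZ/SVZ cells (Plxna1, Plxna2, Plxna3, Plxnb1, Epha4, Epha5 and Efnb2). Slit1, a secreted ligand of the Robo receptors, had signals of 279.8, 237 and 479 in the 3 CP cells, and in the VZ/SVZ its lowest signal was 0.94, its median 12.2 and its highest 175. It was the only member whose CP and VZ/SVZ cells did not overlap, as for 0.0989% of all genes. The levels were 8.31 ± 0.53 and 3.65 ± 1.08, a difference of 4.66 on the log2 scale. A second Slit1 probe set was above 50 in all 3 CP cells and in 7 VZ/SVZ cells and differed by 6.09.

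Robo1, a receptor of Slit1, was high in the same cells. Its signals were 139.9, 146 and 315 in the CP, and 0.07, 3.22 and 742 at the lowest, median and highest of the VZ/SVZ, a difference in level of 4.09. Its other 2 probe sets differed by 0.74 and −0.11 and were above 50 in no CP cell. Robo2 was above 50 in none of the CP cells, with signals of 3.9, 0.6 and 1.2.

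Dcc and Plxnd1 were also high in every CP cell. Dcc had CP signals of 1363, 842 and 869.7, against 0.09, 5.87 and 1487 in the VZ/SVZ, a difference of 4.63, and a second probe set gave 4.56. Plxnd1, the receptor of Sema3e, had CP signals of 145, 166 and 314 and in the VZ/SVZ passed 50 in 1 cell (1.52%, 0.038% to 8.16%), which gave a difference of 4.62. Plxna3, a plexin for class 3 semaphorins, had 587, 852 and 752 (difference 2.92). Ephb1 was uneven: 258 and 952 in CP cells 1 and 3 and 1.1 in cell 2, and its difference of 3.77 ran from 2.24 to 5.87 when 1 CP cell was left out.

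Several ligands were higher in the CP cells too. Sema4g had CP signals of 2057, 1051 and 76.9 (median 18.7 in the VZ/SVZ, difference 3.53). Efnb3, a transmembrane ephrin, had 91.2, 359.7 and 464 (13.7, difference 2.94). Sema6c had 154, 82.3 and 350.5 (14.02, difference 2.84), and Efna3 had 96.2, 74.2 and 55.6 (8.64, difference 2.71). Sema6c and Efna3 were above 50 in 17 and 6 VZ/SVZ cells, so the ranges overlapped. The other members higher by at least 1 log2 unit were Unc5a, Sema7a, Sema4f, Sema4a, Sema4c, Efna1, Plxna2 and Sema3f, by 1.03 to 2.80, each of them overlapping with the VZ/SVZ.

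Sema5a, Sema5b and Sema6d were dim in the CP. Sema5b had signals of 1.3, 1.0 and 14.9 in the CP and a median of 313 in the VZ/SVZ, a level at least 3.79-fold lower. Such a bound sets the mean log2 level of the brighter cells against a signal of 50, since no cell of the dimmer group passed it. By the same measure Sema6d, with 15.2, 0.5 and 0.3, was at least 2.52-fold lower and Sema5a, with 0.3, 0.5 and 0.9, at least 1.79-fold lower. With 3 cells, a count of 0 allows a share of up to 70.8% of CP cells. Efnb1 had 31.3, 76.4 and 259.9 against a VZ/SVZ median of 547, a difference of −2.59, and a second Efnb1 probe set, above 50 in 60 VZ/SVZ cells, gave −2.76. By the probe sets used, the other members lower by at least 1 unit had no CP cell above 50, apart from Epha3 with 1 and the 2 described next: Efna2, Sema3a, Unc5d, Epha7, Nrp1, Sema3c, Robo2, Efna4 and Ntn4. Another probe set each of Efna2, Epha7 and Epha3 passed 50 in 1 CP cell, with differences of −1.80, 0.28 and 0.46.

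The values of Plxnb2 and Epha4 rested on 1 cell and 1 probe set. Plxnb2 had CP signals of 1468, 595 and 0.9, and its difference of −2.46 became −0.05 without CP cell 3 and −3.99 without cell 1. Epha4 had 602, 293 and 171, a difference of −1.16, but the 2 other Epha4 probe sets above 50 in over 40 VZ/SVZ cells gave 0.97 and 1.57, and the mean over all its probe sets gave 0.45.

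Over all 68 members, 18 were higher in the CP by at least 1 log2 unit, against 10.6% of all genes, and 16 were lower, against 20.4%. After quantile normalization of the cells the counts were 28 and 15, against 16.9% and 17.1% of all genes, and with values under 50 set to 50 they were 10 and 7, against 5.07% and 12.9%. Ligands counted 11 higher and 9 lower of 35 and receptors 7 and 7 of 33. The median difference was 0.09 over members and −0.05 over all genes. The dividing-cell markers were above 50 in no CP cell and in a median of 5 of 5 in the VZ/SVZ, and neuron markers in a median of 9 of 11 and 3 of 11. Their part in the differences of the members was not tested.

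The CP cells were then set against the 16 VZ/SVZ cells with Tubb3 without Sox2, a comparison chosen after the data were seen. Several receptors of these cells were dim in the CP. Unc5d had CP signals of 3.6, 0.7 and 1.8 against a median of 418, at least 3.24-fold lower, and Nrp1 had 8.3, 7.0 and 0.9 against 289, at least 2.48-fold lower. By the probe sets used, Sema6d was at least 13.8-fold lower, Efna2 at least 2.01-fold and Epha7 at least 1.47-fold. Another probe set of Efna2 and another of Epha7 each passed 50 in 1 CP cell and differed by −3.21 and −0.24. The mean of all probe sets gave −1.47 for Sema6d, whose other probe sets passed 50 in no cell. Epha3 was above 50 in 1 of 3 CP cells, at 151 with the other two at 4.3 and 8.2, against all 16. Plxna2 stayed above 50 in all 3 CP cells, at 1685, 273 and 1022, each below the lowest of the 16 (1725). This difference of −1.99 rests on 1 probe set. The Plxna2 probe sets above 50 in 43 and 28 VZ/SVZ cells gave −0.16 and −0.03, and the one above it in 4 gave 1.28.

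Slit1, Plxnd1, Robo1 and Dcc stood above the Tubb3 cells. Slit1 was above 50 in none of the 16 cells and was at least 6.34-fold higher in the CP. Ephb1 was above 50 in none of the 16 either, and differed by 3.93, or by 2.41 without CP cell 3. The Robo1 signals of the CP cells, 139.9 at the lowest, lay above the highest of the 16 cells, 118. The other Robo1 probe sets differed by 0.78 and −0.27 and were above 50 in no CP cell. By the probe sets used, Slit1, Robo1 and Plxna2 were the members whose 2 groups did not overlap, as for 0.352% of all genes. Plxnd1 differed by 4.23 and was above 50 in 1 of the 16, and Dcc differed by 3.21 with 10 of the 16 above 50. In all 19 members were higher in the CP by at least 1 log2 unit (10.3% of all genes) and 17 lower (16.8%), with medians of 0.02 and −0.03. Of the marker lists, 6 of 8 intermediate progenitor markers were lower in the CP (median −3.23), 6 of 11 neuron markers were higher (median 1.13), and all 5 of dividing cells were lower (median −3.60). Their part in the differences of the members was not tested.

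Some ligands were above 50 in the same VZ/SVZ cells as a receptor of the matching family, and others mostly were not. Efnb1 and Efnb2, in all 66, were found with Epha4 in 64 cells and with Ephb3 in 28. Efna2 was found with Epha4 in 36 of its 38 cells, with Epha5 in 33 and with Epha3 in 20. Sema4g was found with Plxnb2 in all 27 of its cells, and Sema4d with Plxnb1 in 17 of 23. Sema6d was found with Plxna2 in 31 of 36. Where the receptor was in nearly every cell such counts follow from its share alone. Sema3a was found with Nrp1 in 4 of its 31 cells, Sema7a with Plxnc1 in 6 of 24, Slit2 with Robo2 in 1 of 10, and Ntn4 with Dcc in 4 of 9 and with no Unc5 receptor. Among all 66 cells Nrp1 was above 50 in 17, Plxnc1 in 18, Robo2 in 16, Dcc in 28, Unc5a in 10 and Unc5d in 18. Epha3 was so in 33, Plxnb1 in 56 and Plxna2 in 51. The counts of Efna2 with Epha3, Sema7a with Plxnc1 and Ntn4 with Dcc are thus near the share of the receptor alone. That of Sema4d with Plxnb1 is no higher than this share. Those of Slit2 with Robo2 and of Ntn4 with Unc5 receptors rest on too few cells to be told apart from it. Slit1 was found with Robo1 in 1 of its 4 VZ/SVZ cells, although both were above 50 in all 3 CP cells. At a signal of 50, no VZ/SVZ cell lacked both Sema5a and Plxna2, both Sema5b and Plxna2, or both Sema5b and Epha3. Sema5b and Epha3 are not of matching families. These 4 members were chosen after their values were seen, as lying on opposite sides of the Sox2 and Tubb3 split.

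Other genes of the pathway differed between the same cells. Of a list of 66 signalling and further guidance genes, 62 were measured. Between cells with Tubb3 without Sox2 and those with Sox2 without Tubb3, 25 were higher, against 8.08% of all genes, and 6 lower, against 13.1%, with a median of 0.43. L1cam, an axonal adhesion molecule, was above 50 in 14 of 16 and 1 of 30 (difference 5.89), and Crmp1 and Dpysl5, of the collapsin response mediator family, differed by 5.71 and 4.80. In the CP against the VZ/SVZ, 23 were higher, against 10.6% of all genes, and 11 (17.7%) lower, against 20.4%, with a median of 0.49. Draxin, a secreted ligand of Dcc, differed by 5.07 and was above 50 in all 3 CP cells and 10 of 66 VZ/SVZ cells. Trim67, which belongs to a protein family that binds Dcc, differed by 5.16, Flrt2, a ligand of Unc5d, by 4.66, and Chl1, a relative of L1cam, by 5.80. With Eomes 6 were higher, against 4.01% of all genes, and 9 lower, against 5.04%, with a median of −0.06.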

How the data were processed

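The members and gene lists were chosen with earlier results of these data known. The deposited values are intensities that the authors computed in MAS5 (version and scaling not stated), per the submitters' processing notes. Of 45101 probe sets, 34958 had 1 gene in the platform annotation, 932 had several and 9211 none. Each of 18194 genes was read from its single-gene probe set with the highest mean log2 intensity over 69 cells, without regard to group. The rule matched 69 RefSeq symbols, and 68 had a probe set. Of the members, 23 had 1 such probe set and 45 several. Members were named with values if above 50 in at least 50% of VZ/SVZ cells, if among the 10 largest differences either way in a comparison, or if the most often detected of their family. The members set against each other for detection in 1 cell, and the CP cells against VZ/SVZ cells with Tubb3 without Sox2, were chosen after the data were seen.

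Intensities below the floor were raised to it, and log2 was then taken. No test was run, since each group is 1 sample; errors are the SD over cells, Clopper-Pearson intervals of shares and Newcombe intervals of their differences, at 95%, for counting error only. The script was tested on simulated data. Alternatives were other floors, quantile normalization, the mean of all probe sets, a marker cut at 100, letter X alone and leaving out each CP cell. Python 3.11.15, numpy 2.4.6, pandas 2.3.3 and scipy 1.17.1 were used. Promoters are from RefSeq (GRCm38.p6); 10 members had no entry.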

Additional observations from a re-analysis of the deposited data

How the results depend on the processing

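Of 1443 differences of single members under an alternative, 1411 kept their direction and moved by less than the SD over cells, 26 moved further and 6 reversed. Of 117 counts and medians, 22 moved by more than the limit used (1.5 times for a count, the spread over cells for a median). With a floor of 50, members at least 1 log2 unit higher and lower were 10 and 7 in CP against VZ/SVZ, 3 and 10 with Sox2, 6 and 2 with Tubb3, and 11 and 3 in Tubb3 without Sox2 against Sox2 without Tubb3, with 1 lower for Eomes and 7 higher for CP against Tubb3 without Sox2. The floor sets the size of differences from cells near it: in CP against VZ/SVZ at a floor of 50, Slit1 differed by 2.60, Ephb1 by 2.11, Plxnd1 by 1.94, Robo1 by 1.67 and Unc5a by 0.53. At the same floor Robo2 differed by 0.88 in Tubb3 without Sox2 against Sox2 without Tubb3. It differed by −0.89 in CP against Tubb3 without Sox2. With no floor the median member differences were 0.35 for CP against VZ/SVZ, −0.14 for Sox2, 0.19 for Tubb3, 0.27 for Tubb3 without Sox2 against Sox2 without Tubb3 and 0.13 for CP against Tubb3 without Sox2. Quantile normalization gave 28 members higher in CP against VZ/SVZ. The mean of all probe sets gave 10 lower there, 2 higher and 1 lower for Eomes and 11 lower for CP against Tubb3 without Sox2, and reversed Epha4 in CP against VZ/SVZ (0.45). Title letter X alone gave a median of −0.14 for Sox2 and reversed Sema3a for Sox2 (−0.10) and for Tubb3 without Sox2 against Sox2 without Tubb3 (0.43), and Plxna3 (0.033) and Robo1 (−0.32) for Eomes. Except where the fewer cells or the floor itself sets the value, the cause was not tested. Leaving out each CP cell in turn gave medians of −0.030 to 0.11 for CP against VZ/SVZ and −0.03 to 0.00 for CP against Tubb3 without Sox2, and reversed Plxnc1 in the latter without CP cell 3, with a range of −0.25 to 3.05. No paired analysis was possible because the replicate numbers follow accession order and no test was run. Depth limits absence: RNA at 5 copies per cell passed 50 in 27 of 69 cells, and a probe set for the 5′ end of dap read 3.11 against 11.11 for its 3′ end on the log2 scale.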
